A study of Mus musculus with 8 samples.

Results

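The genes described here are 10 genes of iron handling and heme recycling in tumor-associated macrophages (TAMs), taken by symbol from the 21051 genes listed in the deposited tables. They are Hmox1, Blvra and Blvrb, which break heme down, Slc48a1, Slc40a1 and Slc11a1, which move heme or metal ions across membranes, Fth1 and Ftl1, the subunits of ferritin, and Tfrc and Trf, which bring iron into cells. RNA was measured in CD45+F4/80+ cells sorted from melanomas that had grown for 14 days after the injection of B16 cells, a pigmented mouse melanoma line, under the skin. TAM-WT are 4 libraries from wild-type C57BL/6 mice, the littermate controls, and TAM-KO are 4 libraries from Colec11-/- mice, which lack collectin-11, a soluble lectin of innate immunity. The deletion was homozygous, was carried in all cells of the body and had been back-crossed onto C57BL/6, and the study used male mice of 8 to 10 weeks unless it said otherwise. The comparison asked how the RNA of these genes differed between macrophages of tumors grown with and without host collectin-11. Each group held as many mice as there are libraries, so every library was taken as 1 mouse, though the labels tie no library to a mouse.

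Macrophages are the main recyclers of iron in the body: they take up dying red blood cells and hemoglobin, open the heme ring with heme oxygenase, and either store the freed iron in ferritin or send it out through ferroportin, the product of Slc40a1. Biliverdin, another product of heme oxygenase, is reduced to bilirubin by the biliverdin reductases. When iron is short, iron regulatory proteins bind a hairpin called the iron-responsive element, which blocks translation when it lies before the coding sequence and protects the RNA from decay when it lies after it.

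That hairpin is shared by several of the 10 genes and is shown here because it is the known point at which their products follow cellular iron. The letters searched on the transcript strand were a C, 5 bases, the loop CAGTGN with a last base other than G, and 5 bases that pair with the first 5, with G-U pairs allowed. In the GENCODE M21 annotation of GRCm38, this pattern was found before the coding sequence of 3 of the 10 genes and in 21 of 20846 genes, or 0.101%, that have such a region. It was found after the coding sequence of 1 of the 10 genes, Tfrc, and in 98 of 20929 genes, or 0.468%. A match is a description of letters, not a tested binding site. Each sequence has 27 bases and the loop is in capitals. The sites before the coding sequence were as follows.
Fth1, chr19:9982733-9982759, plus strand: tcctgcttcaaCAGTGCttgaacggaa
Ftl1, chr7:45459780-45459806, minus strand: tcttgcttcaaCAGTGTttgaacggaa
Slc40a1, chr1:45925466-45925492, minus strand: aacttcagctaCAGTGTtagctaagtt
Tfrc held 4 matches in the region after its coding sequence, at these sites.
Tfrc, chr16:32631220-32631246, plus strand: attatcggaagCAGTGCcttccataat
Tfrc, chr16:32631599-32631625, plus strand: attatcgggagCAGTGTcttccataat
Tfrc, chr16:32631664-32631690, plus strand: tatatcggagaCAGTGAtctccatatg
Tfrc, chr16:32631711-32631737, plus strand: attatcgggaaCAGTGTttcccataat

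The 7 complete libraries held from 16225362 to 17280267 counts on genes, and the table of TAM-KO replicate 1 lacked an unbroken run of 5311 genes. Hmox1, Blvra, Slc11a1, Fth1 and Ftl1 were in that run and were compared as 4 TAM-WT against 3 TAM-KO libraries, and the other 5 genes as 4 against 4. Colec11 had from 0 to 4 counts in TAM-WT and 1 count in each TAM-KO library, too few to check the genotype. The macrophage markers Cd68, Csf1r and Adgre1 were present in every complete library, and the summed FPKM of 6 macrophage markers was 2409 to 3086 in TAM-WT and 1948 to 2543 in TAM-KO. FPKM relates the fragments of a gene to its length and to all mapped fragments of the library. All 7 melanoma markers also had RNA, summing to 1958 to 4382 FPKM in TAM-WT and 3817 to 5057 FPKM in TAM-KO, and 8 T cell and NK cell markers summed to 2.19 to 19.8 FPKM against 17.9 to 57.6 FPKM. The 6 neutrophil markers summed to 47.1 to 73.7 FPKM in TAM-WT and 59.8 to 72.5 FPKM in TAM-KO over the 7 complete libraries, with overlap. The 4 with a value in every table, which leave out Csf3r and Mmp8, summed to 8.08 to 9.25 FPKM in TAM-WT. Their sum was 16.5 to 160 FPKM in TAM-KO, without overlap, and the highest value was that of TAM-KO replicate 1.

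Ferritin and heme oxygenase were among the most abundant RNAs of these cells. Ftl1 had the highest FPKM of all genes in each of the 7 complete libraries, Fth1 ranked from 2 to 3, and Hmox1 ranked from 5 to 13. Together these 3 genes took 2.43%, 2.64%, 3.19% and 2.60% of the counts on genes in the TAM-WT libraries, ordered by replicate. In TAM-KO they took 1.77%, 1.90% and 2.55%, for replicates 2, 3 and 4. The share was lower in TAM-KO replicates 2 and 3 than in every TAM-WT library, and the share in TAM-KO replicate 4 lay within the TAM-WT range.

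The other 7 genes were lower by more than an order of magnitude on the FPKM scale. By mean FPKM over the 7 complete libraries, the order was Ftl1 at 15243, Fth1 at 10936, Hmox1 at 4596, Slc48a1 at 205, Blvrb at 203, Slc11a1 at 179, Trf at 96.0, Blvra at 78.4, Tfrc at 46.1 and Slc40a1 at 38.4. Slc48a1 lay above Blvrb in 4 of 7 libraries and Tfrc above Slc40a1 in 4 of 7, so these neighbors did not differ beyond their spread. Each of the other neighbors kept its order in 6 or 7 of 7 libraries.

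Of the 10 genes, 1 had less RNA in TAMs of Colec11-/- mice than in those of WT mice, namely Blvra, at an adjusted p of at most 0.05 in edgeR's quasi-likelihood test with Benjamini-Hochberg adjustment over 12412 genes. None of the 10 passed as higher. Log2 fold changes, unless another scale is named, are of edgeR's scaled counts and not of the FPKM means, so their sizes can differ. Of all genes tested, 9.81% passed, 5.24% as lower and 4.58% as higher, so 1 of 10 is close to the background. The log2 fold change was below 0 for 9 of the 10 genes, against 49.7% of all genes, with a median of -0.45 against 0.0016 for all genes. At an unadjusted p under 0.05 there were 5 of the 10 (Blvra, Slc40a1, Fth1, Ftl1 and Tfrc), all of them with less RNA in TAM-KO, against 30.7% of all genes in either direction and 15.7% in this one in edgeR's test. In bulk RNA of a sorted population, fewer cells of a type and less RNA per cell cannot be told apart.

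**Figure D1:**
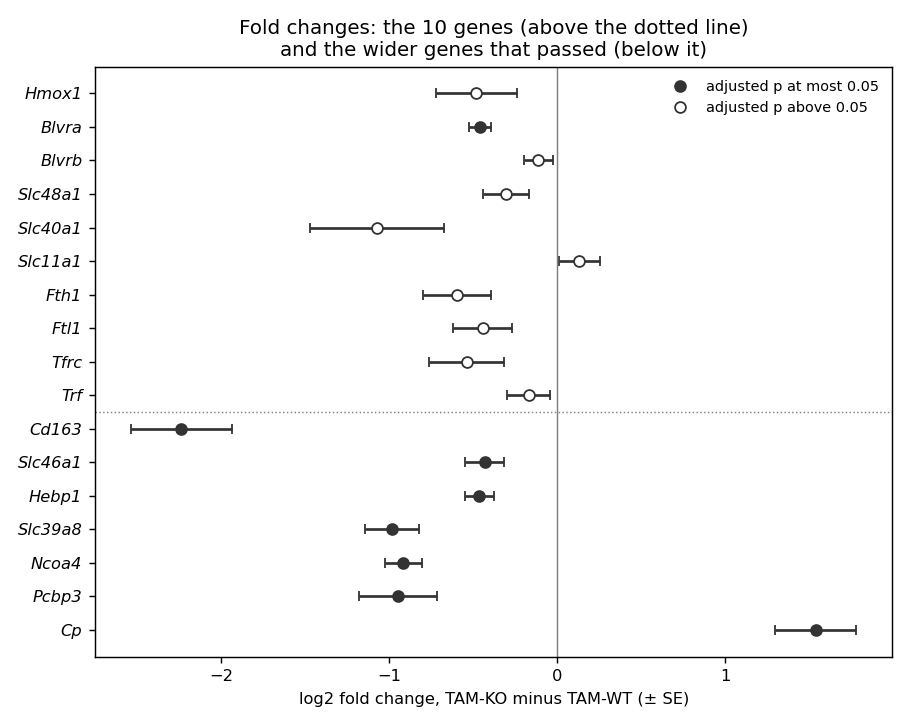
Log2 fold change of TAM-KO over TAM-WT with its standard error, from edgeR's quasi-likelihood test, for the 10 genes above the dotted line and for the 7 passing genes of a wider list below it. Filled points had an adjusted p of at most 0.05. Of the 10 genes, Blvra alone is filled and Slc11a1 alone lies right of 0.

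Heme breakdown begins with Hmox1 (NCBI gene 15368, chromosome 8, 75093621 to 75100589, plus strand), which codes for the inducible heme oxygenase. Hmox1 was at 4704, 4815, 6679 and 4203 FPKM in TAM-WT, ordered by replicate, and at 2979, 3870 and 4920 FPKM in TAM-KO replicates 2 to 4. TAM-WT replicate 3 was the highest library, TAM-KO replicates 2 and 3 lay below all TAM-WT libraries, and TAM-KO replicate 4 lay among them, so the groups overlapped. The means were 5101 ± 1086 FPKM (SD, n = 4) and 3923 ± 972 FPKM (SD, n = 3), and the log2 fold change of -0.48 (SE 0.24) did not pass edgeR's test (adjusted p = 0.216). It was -0.28 without TAM-WT replicate 3 and -0.29 without TAM-KO replicate 2.

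Blvra (NCBI gene 109778, chromosome 2, 127070665 to 127097084, plus strand) codes for biliverdin reductase A, the enzyme that turns biliverdin from Hmox1 and Hmox2 into bilirubin. It was at 90.5, 90.4, 82.0 and 82.6 FPKM in TAM-WT and at 67.0, 65.1 and 70.9 FPKM in TAM-KO replicates 2 to 4. Every TAM-KO library lay below every TAM-WT library, which held for 5.65% of all genes in this direction. That share pools 9396 genes on 8 libraries with 3016 on 7, and a lack of overlap arises more easily with 7. Blvra fell by 0.46 on the log2 scale of edgeR's scaled counts, with a standard error of 0.065 (adjusted p = 0.0139 in edgeR's test). In FPKM, Blvra went from 86.4 ± 4.72 (SD, n = 4) to 67.7 ± 2.99 (SD, n = 3), or 78.3% of the TAM-WT mean. On log2(FPKM + 1), Blvra differed by -0.35. Its spread within each group was small, with a coefficient of variation of 5.46% in TAM-WT and 4.42% in TAM-KO. The adjusted p rose to 0.0731 in edgeR's test without TAM-KO replicate 2 and to 0.059 without TAM-KO replicate 3. In each of these fits only 77 of all genes passed, against 1218 with all libraries, so the loss of the call was not particular to Blvra. The log2 fold change of Blvra stayed between -0.52 and -0.42 when any 1 library was left out.

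The 3 genes whose TMM-scaled log2 CPM followed that of Blvra most closely over the 7 complete libraries were Eps15, Paqr7 and Atp6ap2, among 7508 genes with a mean CPM of at least 20. Their root mean square distances from Blvra, after each gene was centered on its own mean, were 0.017, 0.036 and 0.039 on the log2 scale, against a median of 0.25 over all genes compared. Eps15, an adaptor of endocytosis, was at 37.7 FPKM in TAM-WT and 29.4 FPKM in TAM-KO on average.

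Blvrb (NCBI gene 233016, chromosome 7, 27447978 to 27466144, plus strand) codes for biliverdin reductase B, which also reduces flavins. It was at 201, 197, 211 and 204 FPKM in TAM-WT and at 199, 184, 202 and 221 FPKM in TAM-KO replicates 1 to 4. The TAM-WT libraries lay inside the range of the TAM-KO libraries. Its log2 fold change of -0.11 (SE 0.087) did not pass (adjusted p = 0.411 in edgeR's test). It was -0.06 when TAM-WT replicate 3 or TAM-KO replicate 2 was left out, and -0.18 when TAM-KO replicate 4 was.

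**Figure D2:**
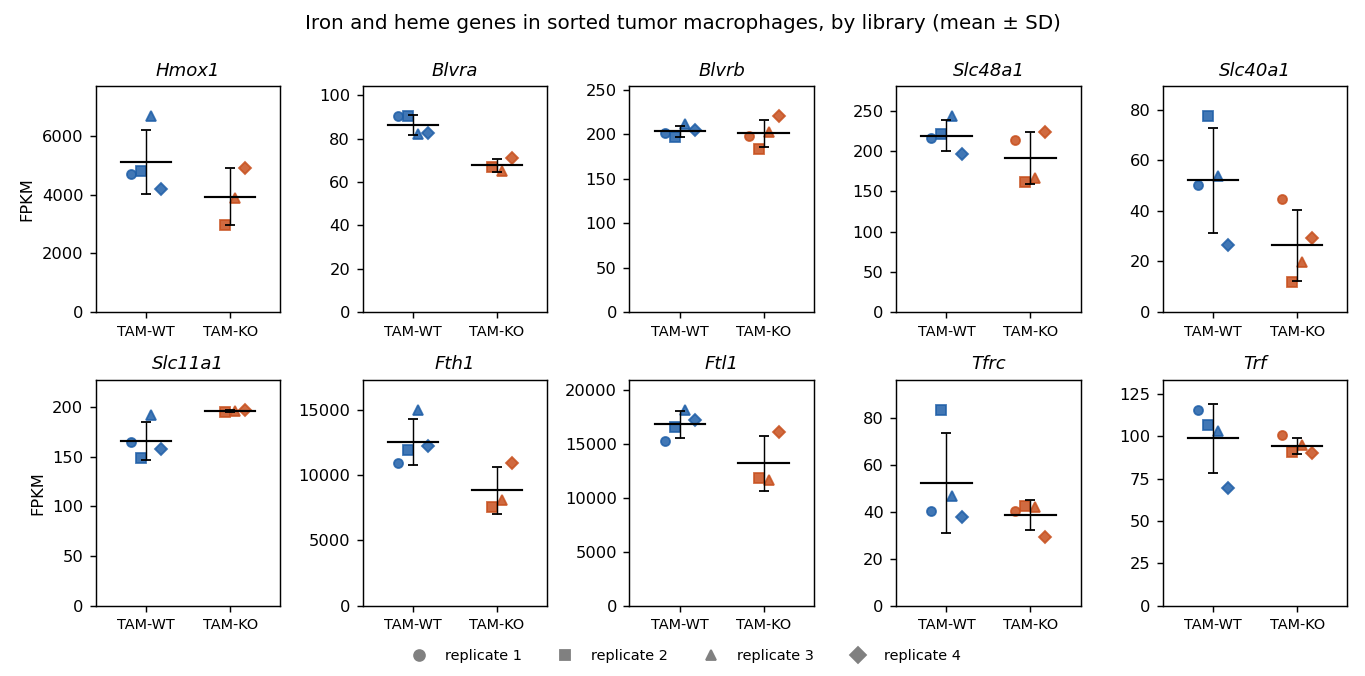
FPKM of the 10 genes in each library, with axes from 0, the symbol giving the replicate, the long bar the group mean and the error bar the SD. Of Hmox1, Blvra, Slc11a1, Fth1 and Ftl1 there is no TAM-KO replicate 1 value. The groups do not overlap for Blvra, 82.0 to 90.5 against 65.1 to 70.9 FPKM, nor for Slc11a1, 148 to 192 against 195 to 197 FPKM.

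Among the transporters, Slc48a1 (NCBI gene 67739, chromosome 15, 97778520 to 97792692, plus strand) codes for HRG1, which carries heme out of the phagolysosome. It was at 216, 222, 244 and 196 FPKM in TAM-WT and at 214, 162, 167 and 224 FPKM in TAM-KO. TAM-KO replicates 2 and 3 were below all TAM-WT libraries, while TAM-KO replicates 1 and 4 were among them. The log2 fold change of -0.30 (SE 0.14) did not pass (adjusted p = 0.167 in edgeR's test). The span of Slc48a1 overlaps that of Hdac7 on the opposite strand, and strandedness is not given in the sources used here. Whether their exons overlap was not checked, so it is not known if reads of the pair are mixed. The expected counts of Slc48a1 were whole numbers.

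Slc40a1 (NCBI gene 53945, chromosome 1, 45908068 to 45926523, minus strand), the only known iron exporter of mammalian cells, had the widest ratio of highest to lowest library within each group, 2.93 in TAM-WT and 3.78 in TAM-KO. It was at 50.3, 77.6, 53.7 and 26.5 FPKM in TAM-WT and at 44.6, 11.8, 19.8 and 29.3 FPKM in TAM-KO. TAM-KO replicates 2 and 3 were the lowest libraries, but TAM-WT replicate 4 lay below TAM-KO replicates 1 and 4, so the groups overlapped. The TAM-KO mean of 26.4 ± 14.1 FPKM (SD, n = 4) was 50.7% of the TAM-WT mean of 52.0 ± 20.9 FPKM (SD, n = 4). The log2 fold change of -1.07 was the lowest of the 10, its standard error of 0.40 was the widest, and it did not pass (adjusted p = 0.104 in edgeR's test).

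Slc11a1 (NCBI gene 18173, chromosome 1, 74375195 to 74386062, plus strand) codes for NRAMP1, a divalent metal transporter of the phagosome whose C57BL/6 form is known to lack function. It was at 165, 148, 192 and 158 FPKM in TAM-WT and at 195, 196 and 197 FPKM in TAM-KO replicates 2 to 4. All 3 TAM-KO libraries lay just above the highest TAM-WT library, as for 13.8% of all genes in this direction. Its log2 fold change of 0.13 (SE 0.12) did not pass (adjusted p = 0.509 in edgeR's test). On the log2(FPKM + 1) scale the difference was 0.25, and on that scale the median of all genes was 0.09 higher in TAM-KO. The direction was the same in each fit, with 0.06 when TAM-WT replicate 2 was left out and 0.24 when TAM-WT replicate 3 was.

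Ferritin stores iron in a shell of heavy chains, which oxidize iron, and light chains, which help it mineralize. Fth1 (NCBI gene 14319, chromosome 19, 9980598 to 9985098, plus strand), the heavy chain, was at 10900, 11888, 14999 and 12222 FPKM in TAM-WT and at 7535, 8107 and 10902 FPKM in TAM-KO replicates 2 to 4. TAM-KO replicates 2 and 3 were below all TAM-WT libraries, and TAM-KO replicate 4 was within 2 FPKM of TAM-WT replicate 1, the lowest of its group. The means were 12503 ± 1756 FPKM (SD, n = 4) and 8848 ± 1802 FPKM (SD, n = 3). The log2 fold change of scaled counts was -0.60 (SE 0.20), which did not pass (adjusted p = 0.0899 in edgeR's test). Without TAM-KO replicate 4 it was -0.80 and passed with an adjusted p of 0.0491 in edgeR's test.

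Ftl1 (NCBI gene 14325, chromosome 7, 45457944 to 45459884, minus strand), the light chain, was at 15237, 16583, 18154 and 17192 FPKM in TAM-WT and at 11822, 11630 and 16082 FPKM in TAM-KO replicates 2 to 4. The libraries fell in the same places as for Fth1, with TAM-KO replicates 2 and 3 below all TAM-WT libraries and TAM-KO replicate 4 among them. The means were 16792 ± 1222 FPKM (SD, n = 4) and 13178 ± 2517 FPKM (SD, n = 3), and the log2 fold change of -0.44 (SE 0.17) did not pass (adjusted p = 0.130 in edgeR's test). Without TAM-KO replicate 4 the adjusted p was 0.0491 in edgeR's test, at a log2 fold change of -0.64. Its expected counts were not whole numbers, so some reads were shared with similar sequence and its level is less certain than that of Fth1. The span of Ftl1 also overlaps Gm22133 on its own strand and Gm10252 on the opposite strand.

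The ratio of Fth1 to Ftl1, in FPKM, was 0.715, 0.717, 0.826 and 0.711 in TAM-WT and 0.637, 0.697 and 0.678 in TAM-KO replicates 2 to 4. Every TAM-KO ratio was below every TAM-WT ratio. On the log2 scale the means were -0.43 ± 0.10 (SD, n = 4) and -0.58 ± 0.066 (SD, n = 3), a difference of -0.14 (p = 0.0571, two-sided exact permutation test, the smallest p that 4 against 3 libraries allow).

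Iron enters cells on transferrin, the product of Trf, through the transferrin receptor, the product of Tfrc. Tfrc (NCBI gene 22042, chromosome 16, 32608920 to 32632794, plus strand) was at 40.5, 83.6, 46.9 and 38.0 FPKM in TAM-WT and at 40.5, 42.4, 42.3 and 29.2 FPKM in TAM-KO. TAM-WT replicate 2 was well above its group's other libraries, and the groups overlapped. The log2 fold change of -0.54 (SE 0.22) did not pass (adjusted p = 0.134 in edgeR's test), and it was -0.25 without TAM-WT replicate 2.

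Trf (NCBI gene 22041, chromosome 9, 103204001 to 103230444, minus strand) was at 116, 107, 103 and 69.5 FPKM in TAM-WT and at 101, 90.9, 95.1 and 90.4 FPKM in TAM-KO. The TAM-KO libraries lay inside the TAM-WT range, whose lowest value, in replicate 4, was also where Slc40a1 was lowest in TAM-WT. A log2 fold change of -0.17 (SE 0.13) did not pass (adjusted p = 0.401 in edgeR's test). It was -0.10 without TAM-WT replicate 1, -0.11 without TAM-WT replicate 3 and -0.30 without TAM-WT replicate 4. The span of Trf overlaps that of Gm20425 on the same strand. Whether their exons overlap was not checked, so it is not known if reads are shared. The expected counts of Trf were whole numbers.

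**Figure D3:**
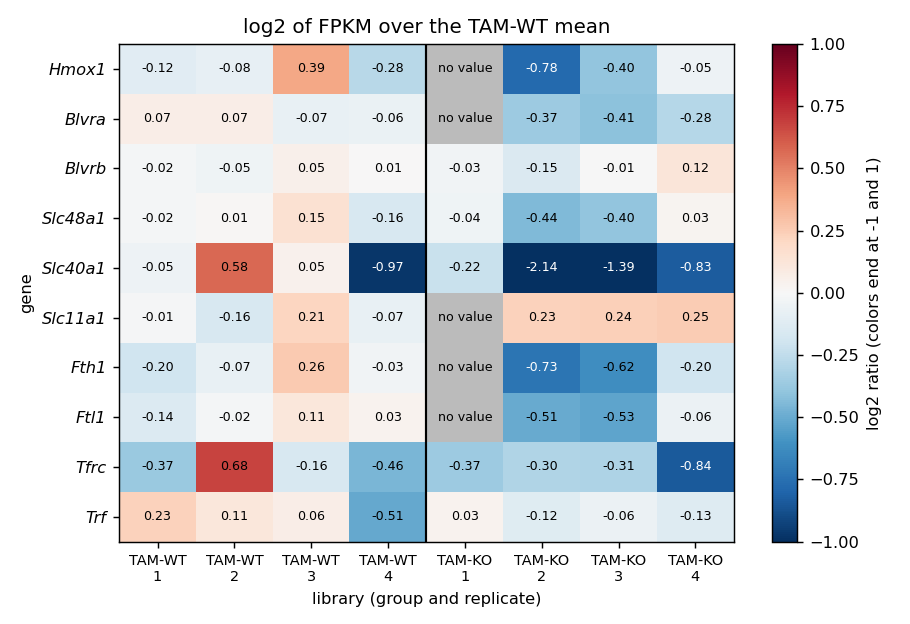
Log2 of each library's FPKM over the TAM-WT mean of the same gene, with blue for lower and red for higher and with colors that end at -1 and 1. Gray cells have no value in the table of TAM-KO replicate 1. TAM-KO replicates 2 and 3 are blue for 9 of 10 genes, and TAM-KO replicate 4 is close to 0 for Hmox1, Slc48a1 and Ftl1.

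Read by library, most of the 10 genes with a value lay below the TAM-WT mean in each of the 4 TAM-KO libraries. Below the TAM-WT mean were 9 of 10 genes in TAM-KO replicate 2, 9 of 10 in replicate 3, 7 of 10 in replicate 4, and 4 of the 5 with a value in replicate 1. In TAM-WT, replicate 3 was above the mean for 8 of 10 genes, and replicates 1 and 4 were below it for 8 of 10. TAM-KO replicate 2 was the lowest of all libraries for Hmox1, Fth1, Slc40a1, Slc48a1 and Blvrb.

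Markers of other cells also differed between the libraries. The summed melanoma markers were at 5057 and 4742 FPKM in TAM-KO replicates 2 and 3 and at 3817 FPKM in replicate 4, against 2640, 4382, 2010 and 1958 FPKM in TAM-WT. All 7 had a log2 fold change above 0, with a median of 0.59, and 1 of them, Sox10, passed edgeR's test (adjusted p = 0.0295), while DESeq2 called 5 of 7 and voom 7 of 7. The summed T cell and NK cell markers were at 57.6, 51.5 and 17.9 FPKM in TAM-KO replicates 2 to 4, and 0 of their 6 tested genes passed edgeR's test, with 5 at an unadjusted p under 0.05. DESeq2 called 1 of 5 and voom 5 of 6. Of the 6 macrophage markers, 5 had a log2 fold change below 0, from -0.55 for Cd68 to 0.23 for Ptprc with a median of -0.28, and 0 passed edgeR's test, with 2 at an unadjusted p under 0.05. DESeq2 called 2 and voom 3 of the 6. In edgeR's test, 1 of 4 neutrophil markers and 1 of 5 dendritic cell markers passed as higher, and 1 of 7 proliferation genes as lower. The 4 neutrophil markers tested were S100a8, S100a9, Csf3r and Mmp8, with log2 fold changes from -1.22 for Mmp8 to 2.68 for S100a8. DESeq2 called all 4 and voom 2. Of all 12412 genes tested, 9.81% passed edgeR's test and 30.7% had an unadjusted p under 0.05 in it. DESeq2 called 2253 of the 12412 and voom 3625. The part of these markers in the differences of the 10 genes was not tested.

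Red blood cell RNA was low, at a summed 7.71 to 118 FPKM in TAM-WT and 22.1 to 27.9 FPKM in TAM-KO replicates 2 to 4 over the 8 markers with values. The sum was 49.5, 108, 118 and 7.71 FPKM in the TAM-WT libraries, ordered by replicate, so those with the highest and the lowest hemoglobin RNA were both wild type. The 3 that could be tested, all hemoglobin genes, had log2 fold changes of -1.85 for Hbb-bs, -1.17 for Hba-a1 and -1.73 for Hba-a2. None of them passed edgeR's test, DESeq2 or voom, and 0 had an unadjusted p under 0.05 in edgeR's test, with the lowest at 0.0505. The part of red blood cell RNA in the differences of the 10 genes was not tested.

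A wider list of 65 genes of the same pathways held 50 that could be tested, 12 with counts too low to test and 3 without values. Of the 50, 6 were lower and 1 was higher in TAM-KO, or 14.0% against 9.81% of all genes, and Cd163 and Cp also differed by at least 2-fold, as did 2.53% of all genes. The median log2 fold change of the list was -0.03. By part of the list, 3 of 10 tested genes of heme and hemoglobin uptake and transport passed as lower. So did 1 of 8 genes of iron uptake and reduction. Of 6 genes of iron storage, chaperones and export, 2 passed as lower and 1 as higher. None of 11 genes that control iron and heme genes and none of 15 of heme synthesis and mitochondrial iron passed edgeR's test, with 3 and 1 of them at an unadjusted p under 0.05. DESeq2 called 2 and 0 of them, and limma voom with sample quality weights 2 and 1. Over all 12412 genes tested, DESeq2 called 2253 and voom 3625, and 30.7% had an unadjusted p under 0.05 in edgeR's test.

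Next to ferritin, Ncoa4, the receptor that carries ferritin to the lysosome so that its iron is released, differed most clearly. Ncoa4 was at 79.4, 72.1, 82.7 and 91.8 FPKM in TAM-WT and at 49.1, 43.3, 45.0 and 49.1 FPKM in TAM-KO. All 4 TAM-KO libraries lay below all TAM-WT libraries with a wide gap, including TAM-KO replicate 4, in which Fth1 and Ftl1 were inside the TAM-WT range. Ncoa4 fell by 0.92 on the log2 scale of edgeR's scaled counts, with a standard error of 0.11 (adjusted p = 0.00546 in edgeR's test). In FPKM it went from 81.5 ± 8.18 to 46.6 ± 2.96 (SD, n = 4 each), to 57.2% of the TAM-WT mean. On log2(FPKM + 1), Ncoa4 differed by -0.79. The call held with any 1 library left out.

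Cp, ceruloplasmin, a copper enzyme that oxidizes iron as it leaves through ferroportin, rose. Cp was at 3.32, 2.07, 1.66 and 2.1 FPKM in TAM-WT and at 8.80, 8.37 and 4.88 FPKM in TAM-KO replicates 2 to 4, without overlap. Cp had a log2 fold change of 1.54 (SE 0.24, adjusted p = 0.0175 in edgeR's test). In FPKM, the TAM-KO mean of Cp was 321% of the TAM-WT mean. The highest 2 libraries, TAM-KO replicates 2 and 3, were those in which Slc40a1 was lowest. They were also those with the highest summed melanoma markers and T cell and NK cell markers. TAM-WT replicate 4 had Slc40a1 at 26.5 FPKM, below TAM-KO replicate 4 at 29.3 FPKM, but less Cp, 2.1 against 4.88 FPKM. A link between Cp and Slc40a1 was not tested. With TAM-WT replicate 3 left out the adjusted p of Cp was 0.0517 in edgeR's test, and with TAM-KO replicate 2 or 3 left out it was 0.0731 or 0.0735.

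Among genes of heme and hemoglobin uptake, Cd163, the receptor for hemoglobin bound to haptoglobin, fell by 2.24 on the log2 scale (adjusted p = 0.00933 in edgeR's test), with libraries between 5.29 and 8.88 FPKM in TAM-WT and between 0.92 and 2.31 FPKM in TAM-KO. TAM-KO replicates 2 and 3, at 0.92 and 0.96 FPKM, were lower than replicates 1 and 4, at 2.31 and 2.18 FPKM. Slc46a1, a transporter of folate and heme, fell by 0.43 (adjusted p = 0.0460 in edgeR's test), a call that held only without TAM-WT replicate 2 or TAM-KO replicate 4 when 1 library was left out, and that otherwise had an adjusted p of 0.0632 to 0.119. Hebp1, a heme-binding protein, was at 33.5, 29.6, 28.3 and 33.1 FPKM in TAM-WT and at 24.3, 23.7 and 24.4 FPKM in TAM-KO replicates 2 to 4. It fell by 0.46 on the log2 scale, a size close to that of Blvra (adjusted p = 0.0222 in edgeR's test). Its adjusted p was 0.0504 to 0.0994 in edgeR's test without TAM-WT replicate 3 or 4 or TAM-KO replicate 2 or 3.

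Slc39a8, the zinc and iron importer ZIP8, was at 4.49, 4.82, 4.06 and 5.49 FPKM in TAM-WT and at 2.66, 1.98, 2.02 and 3.03 FPKM in TAM-KO. Its groups did not overlap, and it fell by 0.98 on the log2 scale (adjusted p = 0.0141 in edgeR's test, and 0.0543 without TAM-KO replicate 3). Pcbp3, of the poly(C)-binding family that includes iron chaperones, fell by 0.95 (adjusted p = 0.0372 in edgeR's test), at no more than 57 counts in any complete library. Its call held only without TAM-WT replicate 2 or TAM-KO replicate 4 when 1 library was left out, and otherwise had an adjusted p of 0.0618 to 0.116 in edgeR's test. The abundant chaperones of that family did not pass: Pcbp1 had a log2 fold change of 0.10 and Pcbp2 of -0.06.

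**Figure D4:**
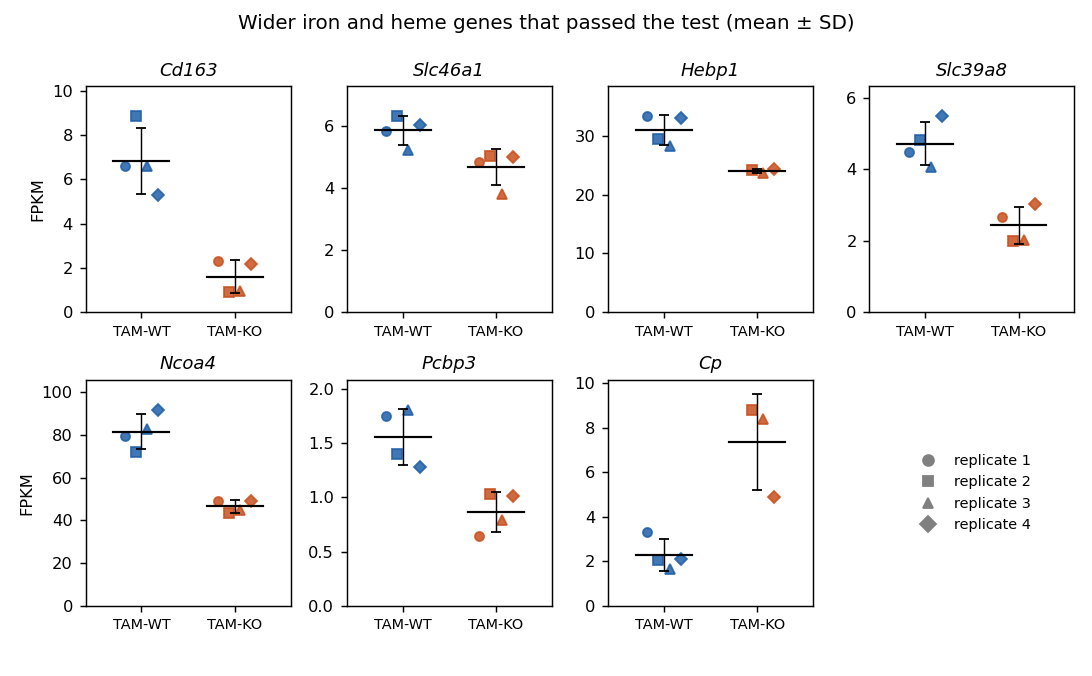
FPKM by library of the 7 genes of the wider list that passed edgeR's test, with axes from 0, the symbol giving the replicate, the long bar the group mean and the error bar the SD. The groups do not overlap for any of the 7, which were chosen because they passed on the same values. Over all genes tested, pooled over those on 7 and on 8 libraries, the groups do not overlap for 5.65% as lower and 13.8% as higher. The ranges are 72.1 to 91.8 against 43.3 to 49.1 FPKM for Ncoa4 and 1.66 to 3.32 against 4.88 to 8.80 FPKM for Cp.

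The regulators and partners described next were chosen for a high mean CPM among genes of the wider list that did not pass, so both traits hold by choice. Over all 11 tested genes that control iron and heme genes, log2 fold changes ran from -1.16 to 0.58. Those with an unadjusted p under 0.05 in edgeR's test are not described here. Hmox2, the constitutive heme oxygenase, had means of 114 ± 6.60 FPKM for TAM-WT (SD, n = 4) and 114 ± 2.39 FPKM for TAM-KO (SD, n = 3). Nfe2l2 (NRF2), which activates Hmox1 and the ferritin genes, was at 82.6 ± 6.48 and 88.7 ± 4.92 FPKM, and Bach1, which represses them when heme is scarce, was at 24.8 ± 2.96 and 27.4 ± 1.87 FPKM. Hif1a, of the oxygen response, was at 59.5 ± 4.97 and 64.3 ± 5.33 FPKM. The log2 fold changes of these 3 regulators lay from -0.01 to 0.03 and changed sign between fits. Lrp1, the receptor for heme bound to hemopexin, had a log2 fold change of -0.14, and Steap3, which reduces iron in the endosome, of -0.08, both with groups that overlapped.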

How the data were processed

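RNA of sorted CD45+F4/80+ cells was sequenced on the BGISEQ-500 platform by the authors. The submitters' processing notes name HISAT2 2.0.4, Bowtie2 2.2.5, RSEM 1.2.12 and GRCm38.p6. The authors estimated expected counts per gene with RSEM and deposited them without normalization. FPKM values were deposited by the authors, scaled to gene length and mapped reads.

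All 8 libraries were grouped by the genotype in the labels, which give no batch. Genes with a value in all 8 tables (12572 genes) were fitted on 8 libraries, and genes missing from TAM-KO replicate 1 on 7. For 2808 of 2808 comparable genes, TAM-KO replicate 1 equaled the authors' table of the whole series within 0.006 FPKM. That table gives 1188 of the missing genes, none of the 10, and was used in 1 alternative. In TAM-KO replicate 1, 629 misplaced values were not used. The authors' columns of log2 ratios and q-values were not used.

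Rounded expected counts entered edgeR 4.0.16 (R 4.3.3; TMM, filterByExpr, glmQLFit, glmQLFTest) with Benjamini-Hochberg adjustment over 12412 genes. On simulated counts of 12408 genes for this comparison, the test called 79% of 2-fold and 94.9% of 4-fold changes, with 8 false calls. The simulation held no smaller changes and no differences in cell content between libraries. It therefore does not show how often changes of the size seen in most of the 10 genes would pass. The ferritin ratio was tested with scipy 1.17.1. Alternatives used DESeq2 1.42.0 and limma 3.58.1. The 10 genes, the wider list and the marker lists were chosen with earlier results of these data known. Named besides the 10 are the passing genes of the wider list, its 8 other genes of highest mean CPM, and the 3 genes nearest to Blvra. Marker genes were named after their values were seen. Library totals limit counting error only.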

Additional observations from a re-analysis of the deposited data

Results flagged for a closer look

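Within groups of 4 libraries, 38 groups of the named genes were searched for a library far from the others, and chance alone would mark about 1 in 20 of them, or 1.9. There were 2. Tfrc, the transferrin receptor, was at 29.2 FPKM in TAM-KO replicate 4, below the 40.5, 42.3 and 42.4 FPKM of the other TAM-KO libraries. The gap was 0.856 of the group's range, with a limit of 0.829. Slc46a1, a folate and heme transporter, was at 3.8 FPKM in TAM-KO replicate 3, below the 4.84 to 5.02 FPKM of the others, a gap of 0.852 of the range.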

How the results depend on the processing

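The 10 genes kept the sign of their log2 fold change in all fits run. The number that passed was 1 in the fit reported, 0 at an adjusted p of at most 0.01, 3 with DESeq2 (Blvra, Fth1 and Ftl1) and 5 with limma voom and sample quality weights (these with Slc40a1 and Slc48a1). Leaving out 1 library gave from 0 (without TAM-KO replicate 2 or 3) to 3 (without TAM-KO replicate 4). For the wider list the numbers were 7, 2 at an adjusted p of at most 0.01, 12 with DESeq2, 15 with voom, 13 when TAM-WT replicate 2 was left out, 3 when TAM-WT replicate 3 or TAM-KO replicate 2 was, and 2 when TAM-KO replicate 3 was. Over all 12412 genes, 1218 passed, 36 at an adjusted p of at most 0.01, 2253 with DESeq2 and 3625 with voom. With 1 library left out, from 77 (without TAM-KO replicate 2 or 3) to 2755 (without TAM-WT replicate 2) passed. On log2(FPKM + 1), 916 were higher and 408 lower, against 568 and 650. The ferritin ratio differed by -0.17 to -0.092 with 1 library left out.

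Same-numbered libraries did not consistently deviate together (correlations -0.33, 0.020, -0.23 and 0.26), and differently numbered ones had correlations from -0.30 to 0.38. Pairing by number was thus not seen. With 4 libraries per group, whose deviations from the group mean depend on each other, the check cannot exclude it. With the replicate block, 1 of the 10 and 6 of the wider list passed, and the ratio difference was -0.16 (exact permutation p = 0.25, the smallest possible).

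Signs reversed only in 6 genes that never passed, and the cause was not tested. On log2(FPKM + 1) and log2(FPKM + 0.1) the differences were 0.0551 and 0.0552 for Pcbp2, 0.111 and 0.113 for Hif1a, 0.104 and 0.105 for Nfe2l2, and 0.0225 and 0.0229 for Steap3. Hif1a was at 0.0036 with at least 10 counts in every sample, and Bach1 at -0.031 with voom. With 1 library left out, values ran from -0.35 to 0.0052 for Lrp1, -0.052 to 0.0904 for Hif1a, -0.081 to 0.0521 for Nfe2l2, -0.065 to 0.11 for Bach1 and -0.18 to 0.0032 for Steap3.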
